A study of Drosophila melanogaster with 2 samples.

Results

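Of 6054 peaks called in a ChIP-seq experiment on tagged Bicoid in fly embryos, 933 (15.4%, 95% interval 14.5 to 16.3) had their summit between or beside the start sites of protein-coding genes that are transcribed in opposite directions. These divergent coding promoter peaks were chosen by position alone. The summit, the single most enriched base of a peak, had to lie within 500 bp of start sites of at least 2 protein-coding genes, with at least 1 start on the plus strand and at least 1 on the minus strand. A further 1750 peaks (28.9%) had coding starts within 500 bp on 1 strand only, and the other 3371 peaks (55.7%) had no coding start that near. Among the 2683 peaks at coding promoters, 34.8% were therefore divergent. The 933 entries covered 922 distinct intervals, 843 distinct gene pairs and 1736 genes, which are 12.4% of the 13968 protein-coding genes in the annotation. Each pair is written here as minus-strand gene/plus-strand gene, using the nearest start on each strand.

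The data are chromatin immunoprecipitation with sequencing (ChIP-seq) from whole Drosophila melanogaster embryos of mixed sex, 0 to 24 h old, of a transgenic line named 1T-GFP, in which the coding sequence of the transcription factor Bicoid is fused at its C-terminal end to enhanced green fluorescent protein. The antibody was directed against the fluorescent protein, although the label field for the antibody names bcd, the gene itself. There were 2 libraries, biological replicates 1 and 3, and both fall in 1 group. No second genotype, treatment or stage was studied, and every comparison is between classes of peaks, between genes or between the libraries. The set of 6054 peaks is the authors' optimal set from the irreproducible discovery rate (IDR) procedure, which scores how consistently peaks rank between lists. Each replicate also had a relaxed list of 30000 entries. Not every peak of the set ranked alike in the replicates, since 112 had no entry in the replicate 1 list and 107 had none in the replicate 3 list. The lists carry no read counts and sequencing depth is therefore unknown. The control experiment that the labels name was not analysed here. Embryos of this age range span stages with and without the maternal protein, and the lists do not tell which cells or stages gave a peak.

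Bicoid is a maternal homeodomain protein that forms a gradient from the anterior pole and switches on segmentation genes through enhancers. In the compact fly genome many protein-coding genes lie head to head, so that the stretch between their starts serves as the promoter region of both. Such shared promoters are frequent among genes needed in all cells, and the promoter-binding proteins DREF, M1BP and BEAF-32 and the DNA word called Motif 7 are known from promoters of this kind, whereas GAGA factor is known from promoters of developmentally regulated genes.

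Stretches of 8 of the pairs are printed here because the results below return to them. The first 3 belong to the strongest divergent peaks. The Atat/Shc and fws/Lamtor3 stretches carry the word of DREF, that of Ripalpha/RpL7 carries the word of M1BP, that of mtsh/strat carries both, and that of mRpS23/CenG1A holds the word to which Bicoid binds. Capitals mark TATCGATA (DREF), GGTCACAC (M1BP), CATCNCTA (Motif 7), CGATA (BEAF-32) and TAATCC (Bicoid), on either strand. TATCGATA contains CGATA, so the first word always counts for both. All are plus-strand sequence of the dm6 build, 5′ to 3′.
Chro/Ssl1: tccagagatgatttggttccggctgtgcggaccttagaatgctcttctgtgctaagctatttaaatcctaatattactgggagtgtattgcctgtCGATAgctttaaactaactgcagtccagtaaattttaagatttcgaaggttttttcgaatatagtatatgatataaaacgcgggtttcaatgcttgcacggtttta
Tcs5/CHMP2B: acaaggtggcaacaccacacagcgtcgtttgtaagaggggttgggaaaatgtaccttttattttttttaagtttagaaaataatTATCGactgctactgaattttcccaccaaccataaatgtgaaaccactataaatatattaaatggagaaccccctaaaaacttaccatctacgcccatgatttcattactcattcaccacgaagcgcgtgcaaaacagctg
Art3/mRpS10: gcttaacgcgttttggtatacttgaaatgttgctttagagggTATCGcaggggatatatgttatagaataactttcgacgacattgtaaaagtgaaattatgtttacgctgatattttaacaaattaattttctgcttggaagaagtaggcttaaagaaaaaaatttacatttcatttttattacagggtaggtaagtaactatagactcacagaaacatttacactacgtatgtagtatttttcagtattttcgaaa
Atat/Shc: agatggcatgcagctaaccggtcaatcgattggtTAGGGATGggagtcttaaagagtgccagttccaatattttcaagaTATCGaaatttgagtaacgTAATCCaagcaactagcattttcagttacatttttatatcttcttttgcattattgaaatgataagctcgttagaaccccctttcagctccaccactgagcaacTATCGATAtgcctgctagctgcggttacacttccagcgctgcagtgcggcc
fws/Lamtor3: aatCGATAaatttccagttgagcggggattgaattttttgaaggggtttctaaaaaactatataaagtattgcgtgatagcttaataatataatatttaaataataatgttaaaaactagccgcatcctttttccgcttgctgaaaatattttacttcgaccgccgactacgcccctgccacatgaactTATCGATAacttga
Ripalpha/RpL7: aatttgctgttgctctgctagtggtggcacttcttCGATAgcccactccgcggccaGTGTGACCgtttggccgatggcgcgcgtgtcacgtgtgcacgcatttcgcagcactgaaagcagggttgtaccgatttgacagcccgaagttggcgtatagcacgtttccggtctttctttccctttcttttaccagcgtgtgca
mtsh/strat: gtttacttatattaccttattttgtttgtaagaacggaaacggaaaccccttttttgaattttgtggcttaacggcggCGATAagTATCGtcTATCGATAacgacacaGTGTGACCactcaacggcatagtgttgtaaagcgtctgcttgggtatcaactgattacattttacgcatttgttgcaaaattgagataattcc
mRpS23/CenG1A: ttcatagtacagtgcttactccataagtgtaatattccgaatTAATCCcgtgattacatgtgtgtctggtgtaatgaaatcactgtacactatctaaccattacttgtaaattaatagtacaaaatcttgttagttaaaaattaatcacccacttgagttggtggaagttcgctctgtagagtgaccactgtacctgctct

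The Tcs5/CHMP2B stretch (chr3L:5139395-5139619), the Art3/mRpS10 stretch (chr3R:15229408-15229665), the Atat/Shc stretch (chr3L:9426758-9427010) and the fws/Lamtor3 stretch (chr2L:17481029-17481231) run from the minus-strand start at their first base to the plus-strand start at their last. The other 4 are windows of 100 bp on either side of the summit. They are Chro/Ssl1 at chr3L:22878797-22878997, Ripalpha/RpL7 at chr2L:10200934-10201134, mtsh/strat at chr2L:8320200-8320400 and mRpS23/CenG1A at chr2L:13835358-13835558. Windows of this kind can reach past a start into transcribed sequence. In Ripalpha/RpL7 both starts fall inside the window, at its bases 41 and 71. A marked word is a match of letters only and does not show that a protein was bound there.

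In nearly all members the genes pointed away from each other. The minus-strand start lay to the left of the plus-strand start in 918 of 933 members (98.4%), an arrangement called head to head. The gap between the starts had a median of 301 bp, with quartiles of 220 and 406.5 bp and a range of 1 to 864 bp. The annotated bodies of the paired genes overlapped in 84 of the 918 head-to-head members (9.15%), through other transcripts with starts farther out. Exactly 2 coding genes lay within reach of 886 summits, and 47 summits had more than 2. The largest cluster was at mod(mdg4), a locus known for transcripts spliced in trans from both strands, where the peak named pre-mod(mdg4)-E/pre-mod(mdg4)-Y (signal 925.2, rank 273) had starts of 10 annotated coding units within 500 bp. Noncoding starts were within 500 bp of 22 members.

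The summits lay mostly inside the gap. In 781 of 918 head-to-head members (85.1%, 95% interval 82.6 to 87.2) the summit was between the starts. Of the 137 outside it, 69 lay downstream of the minus-strand start and 68 downstream of the plus-strand start, so the sides differed by less than counting error. Intervals in percent are Wilson 95% binomial intervals over peaks or genes. They cover counting error only, since peaks of 1 list are not replicates.

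Within the gap the summits were centred but not tightly. On a scale that is 0 at the minus-strand start and 1 at the plus-strand start, the median position of the 781 summits was 0.521, with quartiles of 0.325 and 0.703. The median distance from the midpoint was 57 bp. With gaps up to 500 bp the rule admits every position between the starts, and there the central one of 3 equal parts of the gap held 289 of 670 summits (43.1%, 39.4 to 46.9). Over all head-to-head members, 475 summits were nearer to the plus-strand start and 441 were nearer to the minus-strand start. A summit 50 bp or more upstream of both starts was found in 617 members (67.2%). The median summit was 81 bp upstream of the nearer start, with quartiles of 30 and 123 bp.

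**Figure D1:**
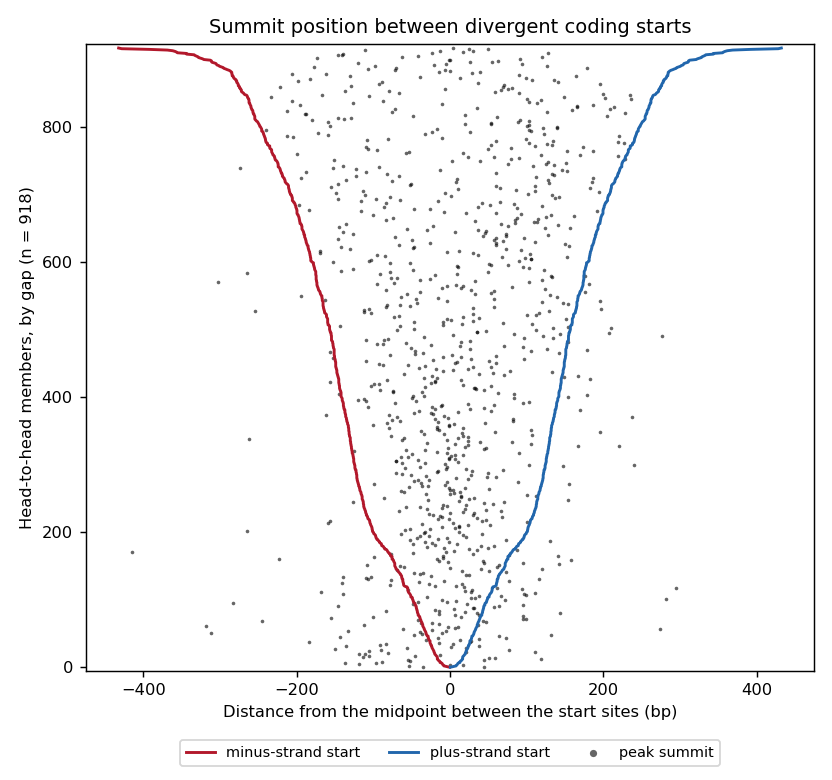
Distance of each peak summit (points) from the midpoint between the start sites in bp, for the 918 head-to-head members ordered by gap from the shortest at the bottom; the red and blue lines are the minus-strand and plus-strand starts. A reader should see 781 points between the lines, and points on either side of the lines mainly at the bottom, where the gap is short.

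The share of summits inside the gap is given by gap length as a description, since the rule itself bears on it. A summit can lie outside only as far as the farther start stays within 500 bp, so a gap over 500 bp leaves no position outside. With a gap of 1 to 100 bp, 36 of 104 summits (34.6%, 26.2 to 44.2) were between the starts, and the median summit was 22 bp downstream of the nearer start. With gaps of over 200 and up to 300 bp the count was 235 of 257 (91.4%), with the median summit 88 bp upstream of the nearer start. From 401 to 600 bp it was 209 of 210 (99.5%), at a median of 125 bp upstream. The part of the room inside a short gap, and of how exactly a summit is placed, was not tested. The 3 shortest gaps were at Atg6/Pisd (1 bp), SerRS/CG17260 (8 bp) and E(z)/Cnep1r2 (16 bp), and the last of them had the strongest peak. E(z) encodes the methyltransferase of Polycomb repressive complex 2. Its peak had a signal of 976.7 and rank 246 in the IDR set, rank 220 in replicate 1 and rank 294 in replicate 3. SerRS/CG17260, with a gene that charges serine transfer RNAs, had rank 618, and Atg6/Pisd had rank 5741. Atg6 encodes a subunit of the lipid kinase complex that starts autophagy. The longest gap, 864 bp, was at mRNA-cap/CG32599, rank 5513, where mRNA-cap encodes the enzyme that caps messenger RNA.

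The 15 members with overlapping starts had the plus-strand start left of the minus-strand start, by 2 to 632 bp, so that the genes run through each other at their first bases. CG4741/Adck1 was the strongest of them, with a signal of 1183 and rank 151. Its rank was 144 in replicate 1 and 190 in replicate 3. CG31808/Cyt-c-d followed at rank 183, with rank 303 in replicate 1 and rank 126 in replicate 3. Cyt-c-d encodes a cytochrome c. SC35/eRF3, a splicing factor beside a translation termination factor, stood at rank 2226. In these members no stretch between the starts lies outside both genes.

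The rule ends at 500 bp, and 32 further peaks had their second start 501 to 560 bp away. Just inside were HSPC300/CG3163 (farther start at 498 bp, signal 221), RpL7A/dx (499 bp, signal 154.8) and Mvk/Iswi (500 bp, signal 270.9). Just outside were CG11409/Naa30A (501 bp, signal 138.2), CG15343/CG1636 (503 bp, signal 172) and mRpS25/nmdyn-D6 (504 bp, signal 155.7).

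The strongest divergent peak was Chro/Ssl1, whose starts are 105 bp apart. Chro encodes Chromator, a chromatin protein of the open interbands of polytene chromosomes, and Ssl1 encodes a subunit of the general transcription factor TFIIH. It had a signal of 3105 and rank 5 of 6054 in the IDR set, a signal of 1390 and rank 7 in replicate 1, and a signal of 1724 and rank 8 in replicate 3. Signal is the authors' enrichment score of a peak, on the scale of each list. Levels are therefore compared within a list, by rank, except where a member lacks a replicate entry. The Chro/Ssl1 summit lay 87 bp inside the Chro transcript, at the centre of the window printed above.

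Tcs5/CHMP2B came next, with a signal of 2843 and rank 10 in the IDR set, rank 9 in replicate 1 and rank 11 in replicate 3. Tcs5 encodes a kinase of a complex that modifies transfer RNA, and CHMP2B encodes a component of the membrane-remodelling ESCRT-III complex. Its summit was 101 bp upstream of the Tcs5 start and 123 bp upstream of the CHMP2B start. Art3/mRpS10, an arginine methyltransferase gene beside a mitochondrial ribosomal protein gene, had a signal of 2732 and rank 15, with rank 16 in replicate 1 and rank 9 in replicate 3. Here the summit was 126 bp from the Art3 start and 131 bp from the mRpS10 start, close to the middle of a 257 bp gap.

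The next ranks held pairs of equally mixed function. CG5611/Mtl had rank 18, and mRpS23/CenG1A had rank 19. Ripalpha/RpL7, with a gap of 30 bp, had rank 27, at rank 23 in replicate 1 and rank 45 in replicate 3. RpS27/Nup37, a ribosomal protein gene beside a gene of the nuclear pore complex, had rank 28, at rank 25 in replicate 1 and rank 44 in replicate 3. At rank 33 was eIF4EHP/CG18428. The eIF4EHP protein is a cap-binding repressor of translation that is known to act with Bicoid on caudal messenger RNA. Atat/Shc, the genes of an alpha-tubulin acetyltransferase and of an adaptor of receptor tyrosine kinases, had rank 39, at rank 37 in replicate 1 and rank 42 in replicate 3. The remaining ones of the 15 strongest were CG5757/CG5098 (rank 35), CG13390/CG17294 (rank 38), Fbw5/CG9147 (rank 40), Pex11ab/CG8320 (rank 41), mRpL23/CG9004 (rank 43) and CG3437/CG3552 (rank 45). All 15 were within the first 63 ranks of replicate 1 and the first 51 of replicate 3. None of these genes belongs to the segmentation genes known as Bicoid targets.

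Divergent peaks ranked higher than other classes of peaks. Their median signal in the IDR set was 280.2, against 242.2 at one-strand coding promoters and 203.5 elsewhere. The median ranks were 2241, 2722.5 and 3398. The strongest part of the IDR set, which by construction holds 25% of all entries, held 322 of 933 divergent peaks (34.5%, 31.5 to 37.6), 30.7% of one-strand peaks and 19.4% of the others. The weakest 25% held 142 divergent peaks (15.2%), against 21.4% of one-strand peaks and 29.6% of the others. The ranges overlapped almost wholly, with divergent signals from 125.2 to 3105 and one-strand signals from 125.1 to 4627.

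Read by rank, the divergent share was 18 of the 50 strongest IDR peaks (36%, 24.1 to 49.9), 22% of ranks 51 to 100, 20.2% of ranks 501 to 1514 and 11.1% (10 to 12.3) of ranks 3028 to 6054. The decline is clear between the upper and the lower part of the list. Among the few strongest peaks the interval is wide.

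Signal was highest at gaps of intermediate length. Members with a gap of 1 to 100 bp had a median signal of 261.5 and a median rank of 2454, and 31.7% of them were in the strongest 25%. Members with a gap of over 200 and up to 300 bp had a median signal of 334.9 and a median rank of 1722, with 117 of 257 (45.5%) in that part. From 401 to 600 bp the median signal was 248.9, the median rank 2638 and the share 27.1%. Both replicate lists had their best median rank at over 200 and up to 300 bp, 1385 in replicate 1 and 1852 in replicate 3.

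**Figure D2:**
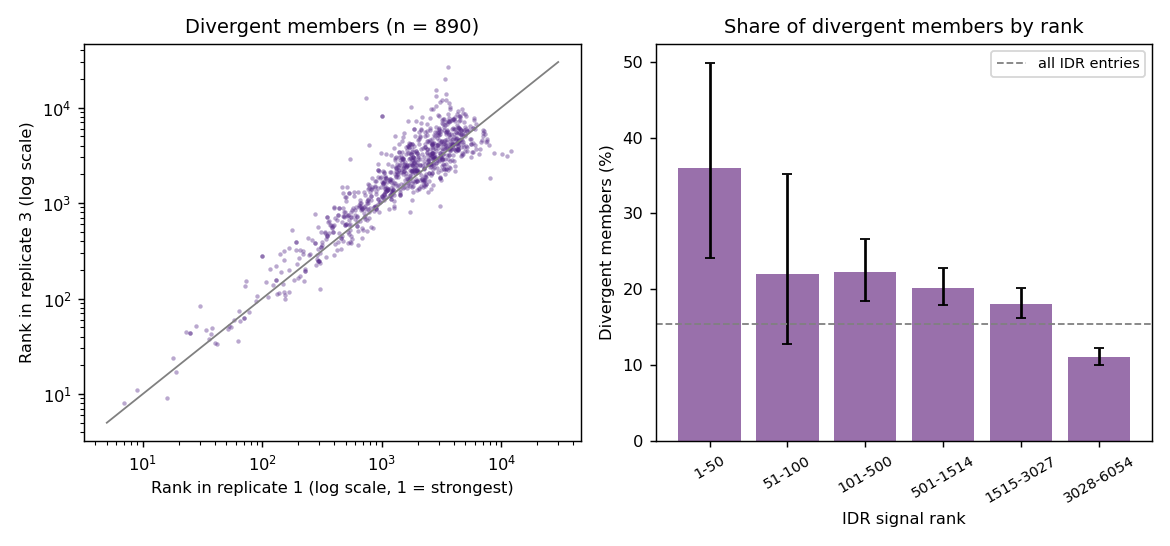
Left, rank of the 890 divergent peaks with an entry in both replicate lists, replicate 1 on the x axis and replicate 3 on the y axis (log scales, 1 is strongest, the line marks equal ranks); right, percent of IDR entries that are divergent by band of IDR signal rank, with Wilson 95% intervals. Points fall more often above the line, where replicate 1 ranks a peak better (639 of 890), and the share is 36% in the first band and 11.1% in the last.

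The replicate lists were read at the size of the IDR set, that is the 6054 strongest entries of each. In replicate 1, 903 of 933 divergent peaks (96.8%, 95.4 to 97.7) overlapped such an entry, against 91.9% of one-strand peaks and 72.8% of the others, where all IDR entries gave 82%. In replicate 3, 824 divergent peaks (88.3%, 86.1 to 90.2) did so, against 82% of one-strand peaks and 88.5% of the others, where all IDR entries gave 86.6%. The divergent share in replicate 3 is thus near that of all entries. Both lists held 796 divergent peaks (85.3%), 74.5% of one-strand peaks and 62% of the others, and 2 divergent peaks were in neither. The IDR set is built from these libraries, so the replicate lists are not independent of it.

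The libraries did not weigh the classes alike. Of the 890 divergent peaks with an entry in both relaxed lists, 639 (71.8%, 68.7 to 74.7) had the better rank in replicate 1. The share was 64.9% at one-strand promoters, 38.4% elsewhere and 51.1% over all IDR peaks. The median rank of divergent peaks was 1817 in replicate 1 and 2326 in replicate 3. Sequencing depth is unknown, and its part in this was not tested.

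Where both libraries had an entry, they placed it at nearly the same base. The summits of the replicates were a median of 21 bp apart over 890 divergent peaks and 22 bp apart over 1680 one-strand peaks. They were within 50 bp of each other in 77.5% of divergent peaks. The replicate's own summit also met the divergent rule for 912 of 923 members in replicate 1 and for 896 of 900 in replicate 3. Because a relaxed entry can span several IDR summits, 162 members shared their replicate 1 entry with another member and 166 shared their replicate 3 entry. Their replicate ranks are those of the shared entry.

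The largest rank differences were among weak peaks. Pif1/CG31776, with the gene of a DNA helicase, had rank 3593 of 30000 in replicate 1 and rank 26589 in replicate 3. Ir60e/CG13585 (ranks 3417 and 19983) and trsn/Pef (ranks 2867 and 15228) were next in that direction. In the other direction CG8046/Rad51D had rank 12100 in replicate 1 and rank 3480 in replicate 3. CG44290/CG43447 (ranks 11112 and 3123) and CG1307/twr (ranks 10107 and 3302) followed. The IDR ranks of these 6 pairs were 3510 or weaker.

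No entry at all was found for 10 members in the replicate 1 list and for 33 in the replicate 3 list. Where both entries existed, the IDR signal was a median of 0.999 times the sum of the replicate signals. It exceeded the replicate 1 signal by a median of 118.1 in the 33 members. In the 10 members it exceeded the replicate 3 signal by a median of 75.9. Whether the library without an entry was enriched at these sites was not tested. Rpn6/ave was the strongest member without a replicate 3 entry, with a signal of 630.5 and rank 598 in the IDR set and rank 338 in replicate 1. Rpn6 encodes a lid subunit of the proteasome. Taf5/Pex6 (rank 873) and CG10077/CG9948 (rank 911) were the next strongest of them. Without a replicate 1 entry, CG43116/E(spl)mdelta-HLH was the strongest, with rank 1395 in the IDR set and rank 715 in replicate 3. E(spl)mdelta-HLH encodes a repressor that responds to Notch signalling.

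Seen from the annotation, a gene with a close divergent partner was more often near a summit than a gene without. Of 5052 coding genes with a head-to-head coding start within 1000 bp, 1974 (39.1%, 37.7 to 40.4) had an IDR summit within 500 bp of a start. Of the 8916 genes without such a partner, 1241 (13.9%, 13.2 to 14.7) did, and the share over all 13968 coding genes was 23%. A summit between close starts counts for both genes of a pair, so the pair is the safer unit. Of 2667 annotated pairs, 928 (34.8%) had a summit near both genes, 248 (9.3%) near 1 gene and 1491 (55.9%) near neither. Most head-to-head promoters thus had no IDR summit.

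Each library gave the same order. In replicate 1 the share was 47.2% of genes with a partner and 16.1% of genes without, and in replicate 3 it was 36.2% and 12.2%. Both shares were higher in replicate 1.

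The share was not even across gaps. It was 32.7% for genes whose partner starts 1 to 100 bp away, 48.4% (45.4 to 51.5) at over 200 and up to 300 bp, 50.9% (47.3 to 54.4) at 301 to 400 bp and 44.8% at 401 to 600 bp. Beyond that it was lower, at 23.9% for 601 to 800 bp and 20.3% (16.3 to 24.9) for 801 to 1000 bp. Genes with the most distant partners came closest to the 13.9% of genes without a partner.

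**Figure D3:**
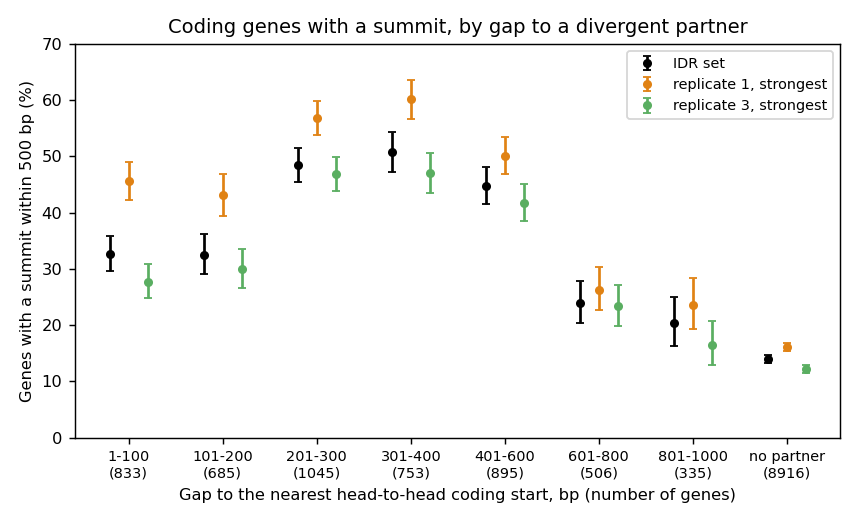
Percent of protein-coding genes with a summit within 500 bp of a start (y axis) by the gap to the nearest head-to-head coding start in bp, with the number of genes below each class (x axis), for the IDR set and for as many of the strongest entries of each replicate; bars are Wilson 95% intervals. The IDR share is 50.9% at 301 to 400 bp, 20.3% at 801 to 1000 bp and 13.9% with no partner, and both replicates show a peak in the same classes.

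By chromosome arm, divergent peaks were 18.9% (16.9 to 20.9) of IDR entries on 3R, 15.1% to 16% on 2L, 2R and 3L, and 10.4% (8.77 to 12.3) on the X. Genes with a partner within 1000 bp made up 35.7% of coding genes on the X and 35.9% to 37% on 2L, 2R, 3L and 3R. A summit was found at 33.2% of partnered genes on the X (30 to 36.6), 36.4% on 2R (33.5 to 39.4) and 37.8% on 2L (34.8 to 40.9). On 3L it was 41% (37.9 to 44.1) and on 3R 45.1% (42.3 to 47.8). The X interval overlaps those of 2R and 2L. Genes without a partner were hit in 16.3% on the X and in 13.2% to 14% on 2L, 2R, 3L and 3R.

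Genes of ribosomal proteins were at divergent peaks more often than coding genes in general. Of 93 cytoplasmic ribosomal protein genes, 36 (38.7%, 29.4 to 48.9) were at a divergent peak, against 12.4% of all coding genes. Of the 56 that have a head-to-head partner, those 36 were 64.3%, against 34.2% of all partnered genes. The higher share was not limited to divergent peaks, since 78 of the 93 (83.9%) had a promoter summit of any kind, against 23% of all coding genes. Their 42 peaks had a median rank of 813.5, against 2241 over all divergent peaks. The strongest were Ripalpha/RpL7 (rank 27), RpS27/Nup37 (rank 28), RpL41/NaCP60E (rank 141, beside a sodium channel gene), RpL32/CG7943 (rank 156) and Nelf-E/RpL14 (rank 184). The members of this list are among the most highly expressed genes of any cell.

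Mitochondrial ribosomal protein genes were at a divergent peak in a similar share, 28 of 73 (38.4%, 28 to 49.8), but their 29 peaks ranked lower, at a median of 2560. Art3/mRpS10 (rank 15), mRpS23/CenG1A (rank 19) and mRpL23/CG9004 (rank 43) were exceptions to that, followed by mRpL24/betaggt-I at rank 178. Of the 58 genes with a partner, 48.3% were at a divergent peak. Of the 30 genes with any promoter summit, 28 were at a divergent peak, against 36 of 78 cytoplasmic ribosomal protein genes and 1736 of 3215 genes overall (54%).

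For other lists of genes used in all cells, the share among all members is set beside 12.4% of all coding genes, and the share among members with a partner beside 34.2% of all partnered genes. Mediator and TFIID, the cofactors of RNA polymerase II, had 16 of 43 genes at a divergent peak (37.2%), led by elm/MED27 at rank 410 and MED30/Rev1 at rank 513. Spliceosome genes had 9 of 26 (34.6%), led by U2af50/PIG-Q at rank 450. Nuclear pore genes had 7 of 21 (33.3%), and genes of vesicle traffic had 24 of 81 (29.6%), led by Fur1/Vps33B at rank 167. For aminoacyl-tRNA synthetases, which charge transfer RNAs, the count was 9 of 33 (27.3%), with GluProRS/AP-1sigma at rank 462 and Hem/IleRS at rank 499. DNA replication had 6 of 28 (21.4%), the proteasome 10 of 48 (20.8%) and the respiratory chain 18 of 90 (20%). ND-ASHI/Fum1, a subunit of respiratory complex I beside fumarase, led the last of these at rank 298. The intervals of the replication (10.2 to 39.5) and proteasome (11.7 to 34.3) lists include 12.4%. Among members with a partner the shares were 50% (16 of 32) for Mediator and TFIID and 48% (24 of 50) for vesicle traffic. They were 33.3% to 40.9% for the other 6 lists, which is near the 34.2% of all partnered genes. These counts are small, and the shares among partnered members are given without intervals.

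Translation factors were at divergent peaks in 5 of 52 genes (9.62%), near the 12.4% of all genes, with eIF4EHP/CG18428 at rank 33 and RpL28/eIF1 at rank 199. Among the 26 with a partner the share was 19.2%, against 34.2% of all partnered genes. A promoter summit of any kind was found for 16 of the 52 (30.8%), against 23% of all coding genes. Heat shock genes had 2 of 24, both of the constitutive Hsc70 kind. Hsc70-5/CG8531 had rank 609 and tefu/Hsc70-4 rank 920, where tefu encodes the DNA damage kinase ATM. Histone genes had 1 of 115, ball/His2Av, at rank 1827. His2Av encodes the H2A variant of flies, and ball encodes a kinase of histones. The repeated histone genes lie in a tandem array of near-identical copies, so their values are uncertain.

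Tissue-specific lists were empty. No odorant or gustatory receptor gene (0 of 119, which allows a share of up to 2.52%) and no cuticle protein gene (0 of 70, up to 4.29%) was at a divergent peak. Only 16 and 4 of them had a head-to-head partner, and none was at a promoter peak of any kind. The 23 known Bicoid targets, segmentation and head genes with Bicoid-dependent enhancers, had 0 at divergent peaks (up to 13%). None of them has a head-to-head coding partner within 1000 bp. An IDR summit lay within 500 bp of a start in 5 of the 23 (21.7%), near the 23% of all coding genes.

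At 165 of the 843 pairs (19.6%) at least 1 gene was in a list, against 16.7% of the 2667 annotated pairs. Both genes were in a list at 6 pairs (0.712%, 0.327 to 1.54), against 61 annotated pairs (2.29%). RPA1/Mcm2, at rank 1057, was the only one of the 843 with both genes in the same list, DNA replication, against 47 of the annotated pairs (1.76%). RPA1 encodes a single-stranded DNA binding protein, and Mcm2 a subunit of the replicative helicase. The other 5 were RpS27/Nup37, RpL28/eIF1, ATPsynCF6/Sec13, Sec3/COX7B and mRpL39/Prosbeta2. Of 115 histone genes, 87 have a head-to-head partner, and 1 was at a divergent peak. How many of the 61 and 47 annotated pairs are pairs of histone genes was not counted. These comparisons therefore do not separate the histone array from other genes. At 76 pairs both genes had only a CG number for a name, and at 339 pairs 1 gene did.

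At 90 of the 843 pairs the list held 2 summits, which together make up 180 members. In 86 of the 90 the summits were within 300 bp of each other, and their median distance was 205 bp. In 74 pairs each summit was nearer to a start of its own, the left one to the minus-strand start and the right one to the plus-strand start. Summits are named left and right by position and lie well apart, so geometry bears on this count. It is given as a description only. The gap of these pairs had a median of 332.5 bp, against 290 bp for pairs with a single summit. The smallest distance was 199 bp, and 11 of the pairs had both summits in the same interval. Whether the peak caller sets a smallest distance between summits is not given in the sources used here.

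The summits of a pair were often unequal. RpS27/Nup37 had its strong summit (rank 28, signal 2081) 7 bp upstream of the RpS27 start and a weaker one (rank 2750, signal 240.6) 207 bp away, past the Nup37 start. RpL32/CG7943 had rank 156 nearer to RpL32 and rank 2936 nearer to CG7943. At RpL28/eIF1 the ranks were 199 on the RpL28 side and 1507 on the eIF1 side. For p38a/CG6178, with the gene of a stress-activated kinase, they were 132 and 690. In Elp6/Dic1 (ranks 68 and 1643) the summits were 2533 bp apart and met different annotated starts of the genes.

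Words of the promoter-binding proteins were more frequent at divergent summits than at other summits. Within 100 bp of the summit, on either strand, TATCGATA (DREF) was found in 106 of 933 divergent windows (11.4%, 9.48 to 13.6), in 5.83% (4.82 to 7.03) of one-strand windows and in 0.356% of the others. Over windows of the same length centred on all coding gene starts it was 7.83%. GGTCACAC (M1BP) was in 68 divergent windows (7.29%, 5.79 to 9.14), 4.29% of one-strand windows, 0.415% of the others and 6.74% of gene starts. CATCNCTA (Motif 7) was in 8.15% (6.56 to 10.1), 5.49% (4.51 to 6.65), 1.25% and 5.13%. For this word the intervals of divergent and one-strand windows overlap. At least 1 of these 3 words was in 232 divergent windows (24.9%), 13.7% of one-strand windows and 1.99% of the others.

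A divergent window reaches 2 promoters, and its summit is nearer to a start. The median distance to the nearest start was 90 bp for divergent summits and 165.5 bp for one-strand summits. Word positions were read within 300 bp of the summits of head-to-head members. Between the starts lay 190 of 245 occurrences of TATCGATA, 105 of 211 of GGTCACAC and 119 of 229 of CATCNCTA. Over these alone, TATCGATA was at a median of 36.5 bp upstream of the nearer start, GGTCACAC at 24.5 bp and CATCNCTA at 22.5 bp. Occurrences outside the gap are left out of these medians, so the upstream side is set by that choice. The part of the distance to the start in the difference between divergent and one-strand windows was not tested. In windows 1000 bp to the left and right of the divergent summits, TATCGATA was found in 0.857% and 0.214%.

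**Figure D4:**
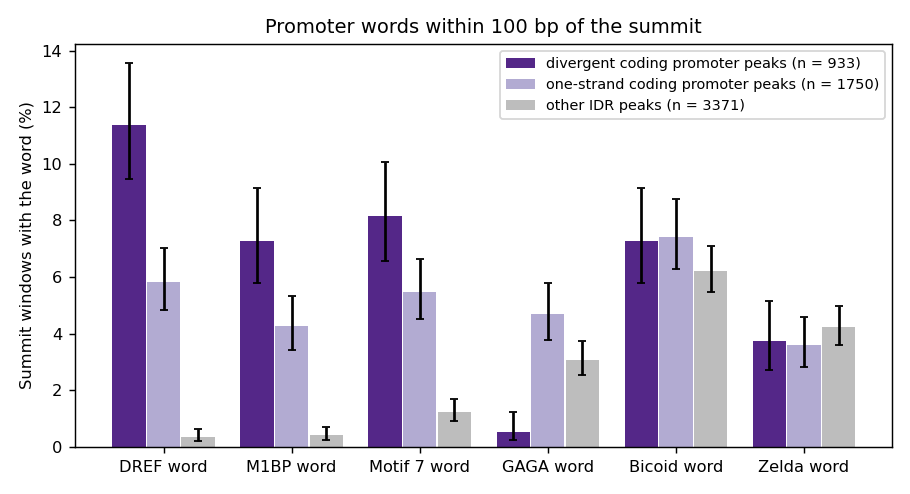
Percent of summit windows (100 bp on either side) that hold the word of DREF, M1BP, Motif 7, GAGA factor, Bicoid or Zelda (y axis), for 933 divergent, 1750 one-strand and 3371 other IDR peaks; bars start at 0 and carry Wilson 95% intervals. The DREF, M1BP and Motif 7 words are highest at divergent peaks (11.4%, 7.29% and 8.15%), the GAGA word is lowest there (0.536%), and the Bicoid word is at 6.23% to 7.43% in all 3 classes.

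CGATA (BEAF-32), a short word, was in 439 divergent windows (47.1%, 43.9 to 50.3), 34.1% of one-strand windows, 20.4% of the others and 39.3% of gene starts. The A and T rich words TATAAA and TAATTA were in 40.3% and 22.1% of divergent windows, 32.6% and 15.3% of one-strand windows, and 35.3% and 17.2% of the others. Over gene starts these were 29.2% and 9.94%. Base composition moves with such words. The median A and T content of the window was 65.7% at divergent, 63.7% at one-strand and 65.2% at other summits. Around head-to-head members it was highest near the summit, at 65.9% in the bin of 25 bp that starts 50 bp to its left, and 53.9% to 54% at 300 bp on either side.

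Of 1252 occurrences of TATAAA, 879 lay between the starts. Over these the median position was 120.5 bp upstream of the nearer start, farther out than for the words of DREF, M1BP and Motif 7 between the starts. The initiator word TCAGT was in 28.3% (25.5 to 31.3) of divergent windows, against 33.2% (31 to 35.4) at one-strand summits, 35.4% elsewhere and 42.9% at gene starts. In the windows 1000 bp to either side of the divergent summits it was in 28% each, so summits and flanks differed by less than counting error.

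The word of Bicoid itself did not differ between classes by more than counting error. TAATCC was in 68 of 933 divergent windows (7.29%, 5.79 to 9.14), 7.43% (6.29 to 8.75) of one-strand windows, 6.23% (5.46 to 7.10) of the others and 6.46% of gene starts. To the left and right of the divergent summits by 1000 bp, it was in 7.61% and 5.68% of windows. Members with TAATCC had a median rank of 2193, and members without had 2241. The 3 strongest members with it were mRpS23/CenG1A (rank 19), Atat/Shc (rank 39) and Mkk4/SLIRP2 (rank 56). CAGGTA, the word of the early embryonic activator Zelda, was in 3.75% of divergent windows, 3.6% of one-strand windows and 4.24% of the others, and in 6.32% and 6.97% of the windows 1000 bp away.

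The word of GAGA factor, GAGAGAG, was in 5 of 933 divergent windows (0.536%, 0.229 to 1.25), against 4.69% (3.79 to 5.78) of one-strand windows, 3.09% of the others and 3.68% of gene starts. The intervals of the divergent class and of each other class did not overlap. The 5 members were Acbp1/Piezo (rank 508), retm/frj (rank 1960), ntc/IntS10 (rank 2201), Rox8/CG5986 (rank 3906) and Vha100-2/Vti1b (rank 4256). They are named because the count is small, after their values were seen. Windows 1000 bp to the left and right held the word in 1.61% and 3%. At midpoints of annotated pairs it was in 1.29% (0.741 to 2.25) with a summit near both genes and in 2.75% with none. Over all annotated pairs it was 2.32%. The interval of pairs with a summit near both genes overlaps that of the divergent windows.

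**Figure D5:**
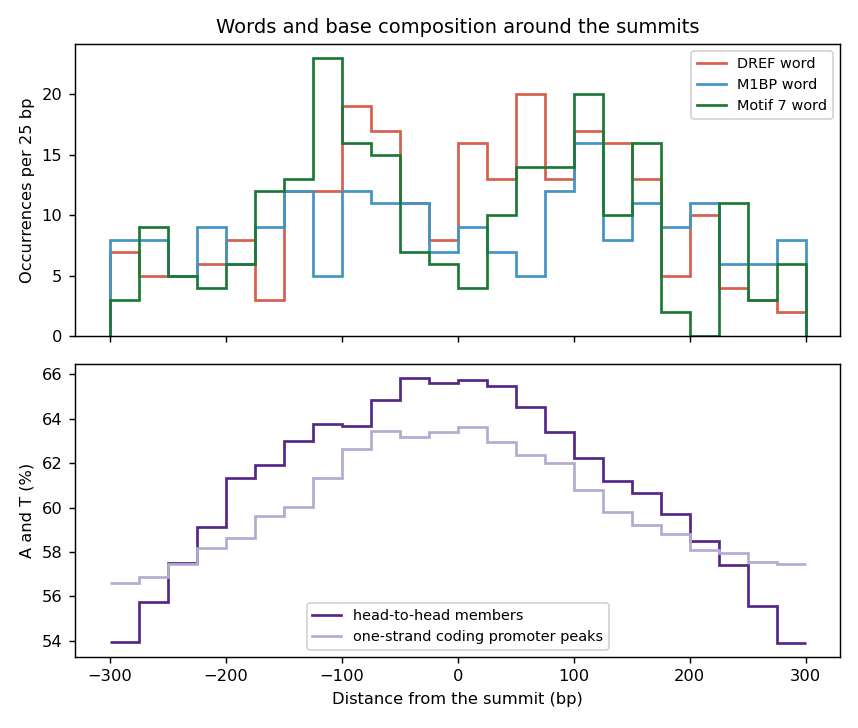
Top, number of occurrences of the DREF, M1BP and Motif 7 words per 25 bp by distance from the summit in bp, over the 918 head-to-head members; bottom, mean A and T percent in the same bins for head-to-head members and one-strand coding promoter peaks. The words are spread over both sides of the summit. The bins just left and right of it hold 8 and 16 DREF words, 7 and 9 M1BP words, and 6 and 4 Motif 7 words. The A and T content of members is near 65.9% at the summit and 54% at the left edge.

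The words of DREF, M1BP and BEAF-32 were more frequent in the weaker members. In the strongest 25% of divergent peaks TATCGATA was in 17 of 233 windows (7.3%, 4.6 to 11.4), and in the weakest 25% in 37 of 233 (15.9%, 11.8 to 21.1). GGTCACAC was in 3.43% and 11.2%, and CGATA in 33.9% and 58.4%. CATCNCTA was in 6.44% (3.94 to 10.3) and 7.73% (4.94 to 11.9), a difference within counting error. TATAAA ran the other way, with 48.1% in the strongest 25% and 30.9% in the weakest. Members with GGTCACAC had a median rank of 3348, against 2157 for members without. In replicate 1 these were 2652 and 1776, and in replicate 3 they were 3422 and 2232, so both libraries gave that order. For TATCGATA the median rank was 2678 with and 2157 without the word. Ranks and words are both taken over the same peaks, and the part of base composition in this was not tested.

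At the midpoints of annotated pairs, the intervals of the words of DREF, M1BP, Motif 7 and BEAF-32 overlapped between pairs with and without a summit. With a summit near both genes, TATCGATA was in 8.41% (6.79 to 10.4) of windows, and with a summit near neither in 9.59% (8.2 to 11.2). GGTCACAC was in 4.53% and 6.24%, CATCNCTA in 6.25% and 5.37%, and CGATA in 39.5% and 43.8%. TAATTA was in 25% (22.3 to 27.9) of midpoints with a summit near both genes and in 19.9% (18 to 22) of those with none, and TATAAA was in 42.7% and 37.4%. The initiator word TCAGT was in 27.6% (24.8 to 30.5) and 34.3% (32 to 36.8), and these intervals did not overlap.

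Single members show the words in place. Atat/Shc was the strongest member with TATCGATA in its window, followed by fws/Lamtor3 (signal 1393, rank 101) and RpL41/NaCP60E (signal 1224, rank 141). The fws protein belongs to a tethering complex of the Golgi, and Lamtor3 to the lysosomal complex that recruits the kinase TOR. Replicate 1 gave fws/Lamtor3 rank 73 and replicate 3 gave it rank 152. The strongest with GGTCACAC were Ripalpha/RpL7, CG3698/tzn (signal 1276, rank 128) and CG7130/RpLP0 (signal 1016, rank 222). Both words occurred in 7 members, of which mtsh/strat (signal 362.6, rank 1502) was the strongest and CG17078/smo (rank 2692) included the gene of the Hedgehog signal transducer Smoothened. In the printed mtsh/strat window the 2 words stand a few bases apart.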

How the data were processed

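The 2 ChIP-seq libraries of 1 group were used. The authors deposited peak lists on dm6 with a signal score per peak, on the peak caller's scale, a −log10 q value, and a summit. No source used here gives the aligner or the peak caller, and depth and its effect on the lists are unknown. Per the deposited file descriptions, lists were made from aligned reads and a control, per replicate and pooled. The lists on dm3 were not used.

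Summits were set against starts of all transcripts of protein-coding genes (Ensembl release 115, BDGP6.54, the dm6 assembly). Sequences come from the RefSeq copy of that assembly. Signal ranked peaks within a list. The −log10 q value, tied for 5376 of 6054 entries, ranked nothing. An overlap of 1 bp joined IDR and replicate entries. Ribosomal and other gene lists were built by symbol pattern. The members and lists were chosen with earlier results of these data known. With 1 group there is no test between conditions, and shares carry Wilson 95% intervals. Scripts used Python 3.11.15, pandas 2.3.3, numpy 2.4.6, scipy 1.17.1 and matplotlib 3.10.9, and were tested on simulated data.

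Named pairs are the 15 strongest, the 2 strongest per list, the 3 best ranks and 3 largest rank differences per replicate, the 3 shortest and longest gaps, the 3 strongest with TATCGATA or GGTCACAC, pairs with 2 summits, and the 3 entries on each side of 500 bp. Pairs with overlapping starts, with many genes, with a missing replicate entry, with TAATCC, with GAGAGAG, with words of both DREF and M1BP, or with both genes in lists were named after their values were seen. Alternatives changed the summit distance, the start definition, the unit counted, the peak threshold, the library, the overlap, the window and the largest gap.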

Additional observations from a re-analysis of the deposited data

How the results depend on the processing

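In all 8 settings that gave both shares, genes with a head-to-head partner had the higher share near a summit, and in all 7 settings that gave a median rank, divergent peaks had a median above the middle of the list. Of 85 values under other settings, 39 stayed within the limit for their kind and 46 moved past it. The limit was a factor of 1.5 for counts, the 95% interval for shares and the SD between the replicates for medians. Direction was checked only for the gene shares and the median rank, and neither turned round. Differences between divergent and one-strand peaks, in words or in replicate shares, were not recomputed under other settings.

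With a summit distance of 250 bp, 548 entries were divergent (9.05% of entries), their median rank stood at 32.5% of the list length, their median gap was 243 bp, 98.2% were in the replicate 1 list, and the shares of genes with a summit were 32.6% with and 10.3% without a partner. With 1000 bp these were 19.3% of entries, 38.7%, 337.5 bp, and 43.5% and 17% of genes. With the outermost start of each gene only, 14.3% of entries were divergent, 80.5% of summits were between the starts, and the gene shares were 36.7% and 12.7%. Among the strongest 50% of IDR entries there were 597 divergent entries (19.7%), at a median of 45.4% of that list, with 99.3% in replicate 1, 96.6% in replicate 3, gene shares of 26.8% and 7.78%, and GGTCACAC in 5.03% of windows.

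In 1 library at a time, 852 to 1145 entries were divergent, which is 14.1% to 18.9% of the list, with the higher values in replicate 1. The median rank was at 39.5% to 40.6% of the list, the median gap was 291 to 304 bp, the share between the starts was 83.8% to 85.6%, gene shares were 36.2% to 47.2% with and 12.2% to 16.1% without a partner, and TATCGATA was in 11.2% to 13.9% and GGTCACAC in 6.34% to 7.6% of windows.

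With a reciprocal overlap of 50%, 84.4% of divergent peaks were in replicate 1 and 69.5% in replicate 3. With all entries of a list these were 98.9% and 96.5%. With replicate summits within 100 bp, an alternative chosen after seeing the data, they were 94.5% and 82.7%. With pairs up to 500 bp apart, the gene shares were 42.1% and 15.8%. With 50 bp on either side of the summit TATCGATA was in 4.72% and GGTCACAC in 3.32% of windows, and with 150 bp in 16.7% and 11.8%. The cause of these shifts was not tested, apart from the wider or narrower distances, overlaps and windows, which by construction admit more or fewer peaks.

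No paired analysis was possible because both replicates belong to the only group. Without read counts, a peak missing from a list cannot be told from a shallow library, and no limit of detection can be given. Peaks are not replicates, so intervals cover counting error only. The annotation gives starts for all stages and tissues, and starts unused in these embryos count too.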
